A study of Mus musculus with 46 samples.

Results

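The comparison is between 3 skin libraries of mice given intravenous immunoglobulin (IVIG) and 3 of mice given phosphate-buffered saline (PBS), within a study of a mouse model of mucous membrane pemphigoid driven by antibodies against laminin 332. The 6 libraries are among 46 in the series, of which 34 are skin, blood, neutrophil or monocyte libraries and 12 carry the label Ics and a time. The treatment of each library was taken from an order of the column names that is inferred and not given by the submitters. The 46 column names, with the leading letter X removed and the low-line character written as a hyphen in the tissue names, were sorted by byte code, and the sorted names were given to the columns in the order they stand. Under that order the titles name 3 PBS libraries, numbered 1, 5 and 10, and 3 IVIG libraries, numbered 2, 6 and 13, all with the prefix S5. The condition field of the labels gives the same treatment as the title in 6 of the 6 skin samples and the treatment field in 2 of 6; titles were used. Values under the names as deposited are given beside the results or in the closing section, because the direction depends on which names are used. Whether the PBS mice received the pathogenic antibody, the strain, the age, the dose, the day of sampling and the body site of the skin are not given in the sources used here. The labels also do not say that the 6 libraries came from 6 animals, so p-values measure the spread between these libraries. The extraction protocol in the labels speaks of bone marrow cells and whole blood and does not mention skin.

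The re-sorted order was checked against genes that mark tissue and sex. Krt5 and Krt14 encode the keratin pair of basal epidermal cells and Col1a1 encodes a chain of type I collagen made by fibroblasts. All 6 re-sorted skin columns carried these markers, with Krt14 at 189.9, 571 and 321 counts-per-million units (CPM, of the library total) in PBS 1, 5 and 10 and at 489.8, 107.9 and 134 CPM in IVIG 2, 6 and 13. Col1a1 was at 8471, 12110.3 and 6260 CPM in the PBS libraries and at 3896, 4784 and 8095 CPM in the IVIG libraries. Under the deposited names 4 of 6 skin columns carried skin markers, and the other 2, named PBS 1 and IVIG 13, held haemoglobin transcripts as blood does. The tissue markers matched the title in 34 of 34 tissue columns after re-sorting and in 25 of 34 before. Y-linked transcripts exceeded Xist in 14 of 14 columns with an S5 title after re-sorting and in 8 of 14 before, while Xist exceeded them in 20 of 20 columns with an S2 or S3 title after and in 14 of 20 before. Neither check bears on treatment within skin, since all skin titles belong to S5. The 4 columns that are skin under both namings change treatment between them, so 4 of the 6 libraries count as IVIG under one naming and as PBS under the other.

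**Figure D1:**
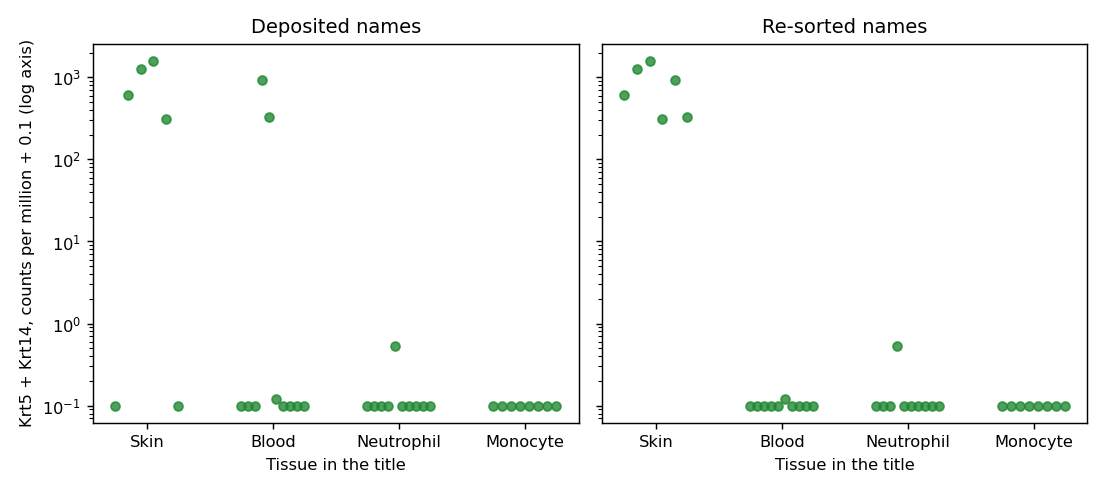
Summed Krt5 and Krt14 in each of the 34 tissue columns, in CPM plus 0.1 on a log axis, by the tissue in the title under the deposited (left) and the re-sorted names (right). Each point is 1 library; after re-sorting all 6 columns with keratin stand under skin, and before it 4 do.

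The 6 skin libraries held between 29202869 and 38479173 estimated counts. Spearman correlation across the tested genes was 0.9414 to 0.9778 between libraries of the same group and 0.921 to 0.9686 between groups. The first principal component, with 40.3% of the variance, did not separate the groups, and the second, with 30.1%, had all IVIG libraries at positive scores (19.65 to 64.4) and all PBS libraries at negative scores (-59.56 to -7.05). Skeletal muscle genes differed widely within both groups, and hair shaft genes were high in PBS 1 and PBS 5 alone; these values are given beside the results they touch. Genes with at least 5 counts numbered 18225, 17976 and 18702 in PBS 1, 5 and 10 and 17788, 17967 and 17565 in IVIG 2, 6 and 13, so the groups did not overlap (two-sided exact permutation p = 0.1, the smallest 3 against 3 allows; 0.375 adjusted over 15 measures). The part of this difference in the results was not tested.

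Laminin 332 is a basement membrane protein that anchors basal keratinocytes to the dermis, and antibodies against it recruit complement and Fc receptor-bearing leukocytes to the basement membrane. IVIG is pooled IgG used in autoimmune blistering disease. Type I interferons act through transcription factors that include Stat2 and Irf9 on genes that sense or restrict viral RNA and DNA. Macrophages respond to interferon with higher Fc gamma receptor I. In whole skin, fewer cells of a type and less RNA per cell cannot be told apart.

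With edgeR's quasi-likelihood test, none of 16781 genes tested passed an adjusted p of 0.05 (0%), while 2045 had an unadjusted p under 0.05. The smallest adjusted p was 0.0752, shared by 51 genes. At an adjusted p under 0.1 there were 106 genes higher with IVIG (0.632%) and 3 lower (0.0179%). In 2 of the 106 no PBS library reached the 0.325 CPM of the low-count filter, and in 1 of the 3 no IVIG library did. These genes passed the filter through 1 group alone and had to differ. The median log2 fold change among the 106 higher genes was 1.58, with a range of 0.76 to 3.85. Under the deposited names none of 16171 genes passed (0%), with 157 at an unadjusted p under 0.05. DESeq2 called more, 689 higher and 152 lower at an adjusted p of 0.05; within the genes edgeR tested this came to 686 higher (4.09%) and 128 lower (0.763%). All 109 genes below 0.1 in edgeR were among the DESeq2 calls. limma voom with quality weights called 0. Summed skeletal muscle transcripts ranged from 82.6 to 30000 CPM over the 6 libraries, and with their log2 sum as a covariate edgeR called 94 genes higher (0.560%) and 10 lower. A joint edgeR fit with 10 neutrophil and 8 monocyte libraries, chosen after the skin values were seen, called 247 higher in skin (1.31%) and 6 lower; it assumes that skin libraries vary like the others. For 1850 genes all 3 IVIG libraries lay above all 3 PBS libraries (11.0%), and for 1172 they lay below (6.98%).

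**Figure D2:**
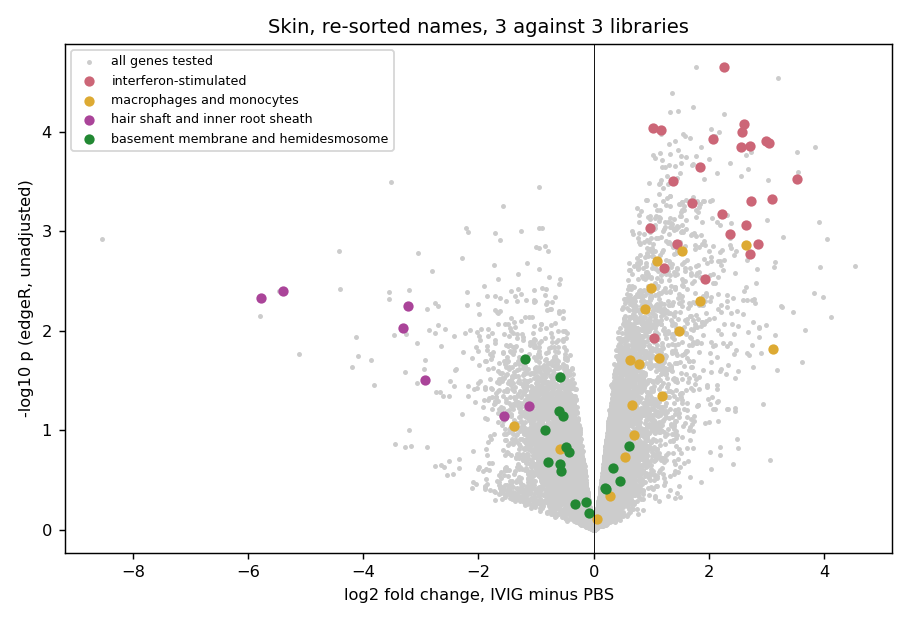
Each grey point is a gene tested in skin under the re-sorted names, by its log2 fold change (IVIG minus PBS, x axis) and the -log10 of its unadjusted edgeR p (y axis); 4 gene lists are coloured. The 26 tested interferon-stimulated genes lie to the right, with a median of 2.31; the hair shaft genes shown are the 7 of 27 that passed the low-count filter.

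The 10 genes with the smallest p were all higher with IVIG and all had an adjusted p of 0.0752. Dhx58 (chr11:100694884-100704271), a cytoplasmic RNA sensor of the RIG-I family, was at 10.2, 6.25 and 8.62 CPM, scaled by TMM factors as all gene levels below, in PBS 1, 5 and 10 and at 44.5, 34.7 and 41.3 CPM in IVIG 2, 6 and 13, a log2 fold change of 2.26 ± 0.23 (standard error). Oasl2 (chr5:114896936-114912234), an oligoadenylate synthetase-like antiviral gene, was at 30.3, 12.7 and 17.8 CPM in the PBS libraries and 117, 124 and 133 CPM in the IVIG libraries. Apol9b (chr15:77729039-77736382) had the largest log2 fold change of the 10, 3.20 ± 0.33, from 2.92, 2.44 and 1.54 CPM to 23.01, 15.3 and 24.99 CPM. In each of these 3 genes the IVIG libraries lay above all PBS libraries without overlap. Irf9 (chr14:55603571-55610030), a DNA-binding partner of Stat2, had a smaller difference of 1.03 ± 0.13, with 37.4, 37.1 and 37.7 CPM in PBS and 77.5, 70.2 and 81.8 CPM in IVIG. Irf5 (chr6:29526625-29541871), a transcription factor of myeloid cells, was at 42.7, 37.9 and 32.2 CPM in PBS and 103, 91.2 and 119 CPM in IVIG. The others were Helz2 (log2 fold change 1.79), Znfx1 (1.36), a helicase that binds viral RNA, Plac8 (1.73), Lgals9 (1.33), which encodes galectin-9, and Rtp4 (2.27). Under the deposited names each of the 10 had the opposite sign, from -2.65 for Apol9b to -0.55 for Helz2, with adjusted p of 1.

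In all 26 tested genes of the interferon list the 3 IVIG libraries lay above the 3 PBS libraries, against 11.0% of all genes. The list's median log2 fold change was 2.31, against -0.045 over all genes tested. Of the 26, 16 had an edgeR adjusted p under 0.1, 25 passed DESeq2 at 0.05, and 19 passed edgeR with the muscle covariate, all higher. The shares of all genes tested that were called higher in these 3 ways were 0.632%, 4.09% and 0.560%. Summed over the list, the level was 1140, 762 and 603 CPM in PBS 1, 5 and 10 and 4240, 2660 and 3130 CPM in IVIG 2, 6 and 13. Among the transcription factors, Irf7 (chr7:141262706-141266481), which amplifies interferon production, was at 120.3, 87.5 and 43.01 CPM in PBS and 773, 556 and 744 CPM in IVIG (log2 fold change 3.05 ± 0.40, adjusted p = 0.0752). Stat2 (chr10:128270559-128292849) differed by 1.37 ± 0.21 (adjusted p = 0.0826). Among the effectors, Ifit1 (chr19:34640871-34650009), which binds RNA lacking a self cap, was at 21.97, 15.8 and 16.2 CPM in PBS and 184, 75.8 and 96.4 CPM in IVIG. Isg15 (chr4:156199424-156200818), a ubiquitin-like modifier, was at 21.1, 20.4 and 9.17 CPM and 231, 75.3 and 129 CPM. IVIG 2 had the highest level of both, and PBS 10 the lowest of Isg15. The synthetases Oas1a (chr5:120896256-120907521) and Oas3 (chr5:120753098-120777661), which make the activator of RNase L, differed by 2.56 ± 0.34 and 3.54 ± 0.53. The one gene that missed the DESeq2 threshold was Iigp1, a GTPase against vacuolar pathogens, with 1.05 ± 0.31 and a DESeq2 adjusted p of 0.0545. With each library left out in turn the list median stayed between 2.04 and 2.68, and it was 2.24 with the muscle covariate. Under the deposited names the median was -1.48, and Isg15 (0.22) did not follow it.

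**Figure D3:**
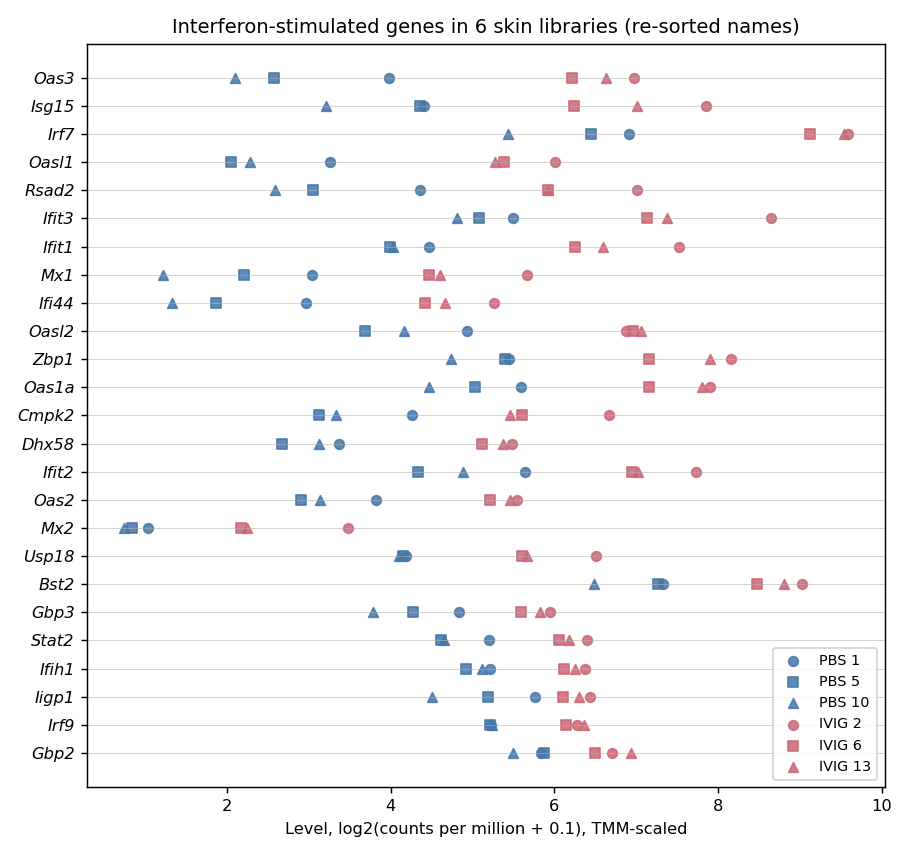
Level of 25 of the 26 tested interferon-list genes in the 6 skin libraries, as log2 of TMM-scaled CPM plus 0.1, ordered by fold change; colour gives the group and the marker shape the library. In each row the 3 IVIG libraries stand to the right of the 3 PBS libraries.

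The interferon-stimulated response element is the DNA motif bound by the interferon-activated complex that holds Stat2 and Irf9, and its core was searched as GAAANNGAAA on both strands in the 250 bases before each start in RefSeq (GRCm38.p6). It was found in 10 of the 18 interferon-list genes with a window (55.6%), in 24 of 87 genes higher at an adjusted p under 0.1 (27.6%), in 17 of 75 of these outside the list (22.7%), and in 421 of 12418 genes tested (3.39%). Of all 32851 windows 2.98% held it. The match is to letters only and no binding was measured. The 4 sequences below are those of the list's genes with a match that had the smallest p. Each is 80 bases, 5′ to 3′ along the gene, with the matches in capitals: chr19:34640750-34640829 on the plus strand, chr5:120907526-120907605 and chr5:120777690-120777769 on the minus strand, and chr10:128270248-128270327 on the plus strand.
Ifit1: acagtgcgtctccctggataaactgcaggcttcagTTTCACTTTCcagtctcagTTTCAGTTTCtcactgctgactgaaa
Oas1a: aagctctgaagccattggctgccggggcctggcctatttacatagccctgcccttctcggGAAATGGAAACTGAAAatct
Oas3: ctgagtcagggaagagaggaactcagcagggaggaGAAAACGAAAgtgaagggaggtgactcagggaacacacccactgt
Stat2: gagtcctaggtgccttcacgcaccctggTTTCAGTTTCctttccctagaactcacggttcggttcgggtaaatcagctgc
Ifit1 has 2 separate matches, and the 2 matches of Oas1a overlap each other close to the start.

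The interferon difference was compared with that in neutrophils and monocytes under the same re-sorted names, with series (S2, S3, S5) as a covariate within those tissues. The difference in skin exceeded that in neutrophils for 54 genes (0.286%), 8 of them among the 26 of the interferon list, and that in monocytes for 126 genes (0.668%), 15 of them in the list. It was below that in monocytes for 8 genes and below that in neutrophils for 0. Irf7 is one of the genes in both sets, with a skin difference larger by 2.90 on the log2 scale than in neutrophils (adjusted p = 0.02) and by 3.54 than in monocytes (adjusted p = 0.00653). The list medians in the joint fit were 2.27 in skin, 0.12 in neutrophils and -0.50 in monocytes. Among libraries with S5 titles the summed list was 445 and 687 CPM in PBS monocytes and 385 and 106 CPM in IVIG monocytes, without haemoglobin transcripts. It was 829 CPM in the single PBS neutrophil library and 921 CPM in the single IVIG one, and 1750 and 4630 CPM in the single PBS and IVIG blood libraries. Blood was not in the joint fit. In the blood libraries with S3 titles the groups overlapped, at 3510, 2690, 2630 and 1490 CPM with PBS and 3630, 4270, 5420 and 2550 CPM with IVIG. Titles of S5 monocytes and of the S5 PBS neutrophil library share numbers with skin titles, which the fit did not use. In S3 titles, number 1 is IVIG for neutrophils and PBS for monocytes and blood. Numbers 2 and 5 also differ in treatment between S3 neutrophils and S3 blood. The fit took treatments from the titles as they stand. The fit's S2 and S3 libraries had Xist above Y-linked transcripts, and the skin libraries the reverse. The part of either in these values was not tested.

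**Figure D4:**
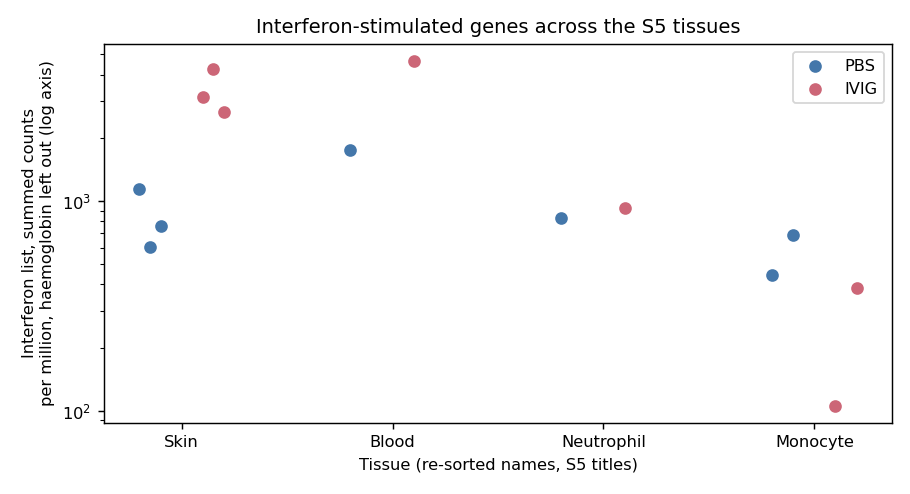
Summed interferon-list level in each library with an S5 title, in CPM after haemoglobin transcripts were left out (log axis), by tissue and treatment under the re-sorted names. The 3 IVIG skin points lie between 2660 and 4240 and the 3 PBS skin points between 603 and 1140; blood and neutrophils have 1 library a group.

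Receptors for IgG and their signalling partners were mostly higher with IVIG. In 14 of 17 tested genes of that list all IVIG libraries lay above all PBS libraries, 9 passed DESeq2 and 1 (Ptpn6) had an edgeR adjusted p under 0.1; the list median was 0.87. Over all genes tested, 11.0% lay above in all IVIG libraries and the median was -0.045. DESeq2 called 4.09% of all genes higher, and 0.632% were higher at an edgeR adjusted p under 0.1. Fcgr1 (chr3:96282909-96293969), the high-affinity activating receptor, was at 45.99, 30.8 and 13.3 CPM in PBS 1, 5 and 10 and 216, 104 and 241 CPM in IVIG 2, 6 and 13 (log2 fold change 2.64 ± 0.51, edgeR adjusted p = 0.112, DESeq2 adjusted p = 9.73e-06). Fcgr4 (chr1:171018920-171029761), an activating receptor for IgG2 subclasses, was at 35.5, 24.5 and 3.98 CPM and 129, 90.9 and 144 CPM (2.51 ± 0.70, adjusted p = 0.211). PBS 10 had the lowest level of both receptors. Fcer1g (chr1:171229572-171234365), the signalling chain these receptors share, was at 212, 173 and 112 CPM and 411, 292 and 357 CPM (1.09 ± 0.27). The inhibitory receptor Fcgr2b (chr1:170958617-170976547) was at 122, 99.8 and 113 CPM in PBS and 165, 138 and 159 CPM in IVIG, a difference of 0.46 ± 0.15 that passed neither tool (adjusted p = 0.284; DESeq2 0.165). Fcgr3 (0.67 ± 0.28) passed neither tool. Ptpn6 (chr6:124720707-124738714), the phosphatase recruited by inhibitory receptors, was at 64.5, 58.5 and 43.9 CPM and 133, 113 and 141 CPM (adjusted p = 0.0885). Plcg2, a phospholipase of receptor signalling, differed by 1.01 ± 0.20 (adjusted p = 0.114). Fcgrt (chr7:45092990-45103851), the neonatal Fc receptor that recycles IgG, differed by -0.10 ± 0.27 (adjusted p = 0.91) and overlapped between groups. Cd209b, a lectin linked to sialylated IgG in the mouse, reached 51.2 CPM in PBS 10 and at most 3.65 CPM in the other 5 libraries. Fcgr1 differed by -2.04, Fcgr4 by -1.66 and Fcgr2b by -0.69, with a list median of -0.56, under the deposited names.

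Macrophage and monocyte genes were higher with IVIG in part. In 11 of 19 all IVIG libraries lay above all PBS libraries, 8 passed DESeq2 and none had an edgeR adjusted p under 0.1. The median was 0.89. The values over all genes were 11.0%, 4.09% and 0.632% higher, with a median of -0.045. Summed over the list the level was 11400, 7030 and 7220 CPM in PBS 1, 5 and 10 and 13600, 14700 and 20200 CPM in IVIG 2, 6 and 13 (two-sided exact permutation test p = 0.1, the smallest 3 against 3 allows; 0.375 adjusted over 15 measures). Cd68 (chr11:69664213-69666153), a lysosomal protein of macrophages, was at 172, 115 and 142 CPM and 307, 343 and 599 CPM (log2 fold change 1.54 ± 0.31, DESeq2 adjusted p = 0.00024). Lyz2, lysozyme, was at 5921, 4294 and 3357 CPM and 8159.6, 8278 and 13444 CPM (1.14 ± 0.37). Ly6c2, a marker of inflammatory monocytes, was at 26.7, 16.3 and 2.02 CPM and 242, 44.4 and 102 CPM and did not pass either tool. Not every marker followed: Csf1r, the receptor that sustains macrophages, differed by 0.54 ± 0.36, the mannose receptor gene Mrc1 by 0.06 ± 0.21 and Cd163, a receptor of resident macrophages, by -1.38 ± 0.70, and all 3 overlapped between groups. How far the macrophage content takes part in the interferon and Fc receptor differences was not tested. Cd68 differed by -1.01, and Lyz2 by -0.65, with a list median of -0.69, under the deposited names.

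Neutrophil transcripts were scarce in both groups, and 11 of the list's 17 genes passed the low-count filter. The neutrophil list summed to 82.7, 74.5 and 73.6 CPM in PBS and to 108, 141 and 118 CPM in IVIG. The two-sided exact permutation test of these sums gave p = 0.1, or 0.375 adjusted over 15 measures. S100a8, an abundant neutrophil calgranulin, was at 1.25, 6.39 and 1.03 CPM and 4.18, 1.13 and 6.03 CPM. S100a9, its partner, overlapped likewise (0.29 ± 0.69). Csf3r (chr4:126024550-126044440), the G-CSF receptor, was the list's gene with the smallest p, at 30.9, 15.5 and 16.6 CPM and 48.8, 55.1 and 77.6 CPM (1.53 ± 0.32, DESeq2 adjusted p = 0.00107). It is counted in the list sums and is a large part of them in the IVIG libraries. Camp, an antimicrobial cathelicidin of neutrophil granules, went the other way, at 1.40, 4.67 and 1.56 CPM in PBS and 0.760, 0.336 and 0.172 CPM in IVIG (-2.58 ± 0.73, edgeR adjusted p = 0.215, DESeq2 0.0116). Csf3r was the list's 1 gene above, and Camp its 1 gene below, in all IVIG libraries, and both are the list's only DESeq2 calls. Over all genes 11.0% lay above and 6.98% below, and DESeq2 called 4.09% higher and 0.763% lower. The list's 1 of 11 above and 1 of 11 below are near that background. Camp differed by 1.18 under the deposited names.

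**Figure D5:**
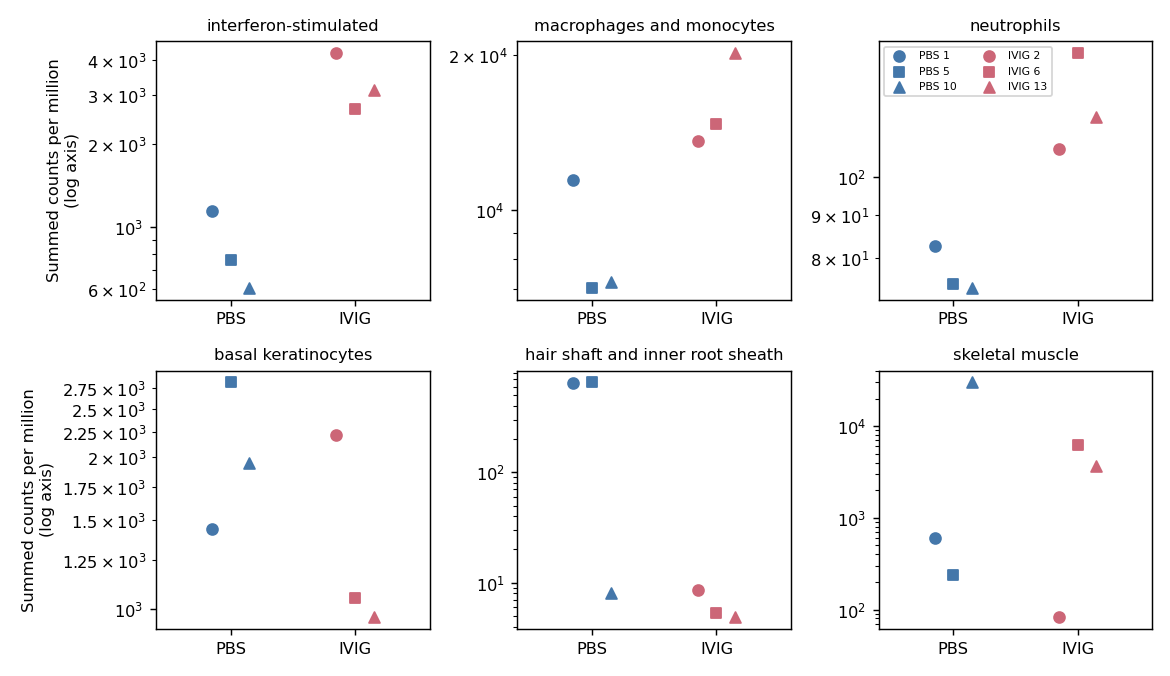
Summed CPM of 6 gene lists in each skin library under the re-sorted names (log axes, scaled per panel); colour gives the group and shape the library. Interferon-stimulated, macrophage and neutrophil sums do not overlap between groups, though in the neutrophil list only 1 of 11 tested genes lay above in all IVIG libraries. Hair shaft genes are high in PBS 1 and PBS 5 alone and skeletal muscle genes range from 82.6 to 30000 in no order of group.

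The complement list was split. In 11 of 23 tested genes all IVIG libraries were above all PBS libraries and in 2 below, and DESeq2 called 8 higher and 2 lower. Over all genes 11.0% lay above and 6.98% below, and DESeq2 called 4.09% higher and 0.763% lower; the 2 of 23 below are near that background. Cfb (chr17:34856374-34862518), factor B of the alternative pathway, was at 78.8, 87.03 and 57.98 CPM in PBS and 196, 174 and 244 CPM in IVIG (1.46 ± 0.22, adjusted p = 0.0826). Cfp (chrX:20925454-20931555), properdin, was at 243, 149 and 239 CPM and 480.1, 581 and 605 CPM (1.40 ± 0.25, adjusted p = 0.101). The anaphylatoxin receptor C3ar1 was at 186, 101 and 67.2 CPM and 405, 436 and 855 CPM (2.26 ± 0.47), and C5ar1, the receptor for C5a, at 64.8, 29.7 and 52.2 CPM and 74.5, 134 and 236 CPM (1.599 ± 0.46, adjusted p = 0.22, DESeq2 0.0134). The C1q chains C1qb (1.11 ± 0.23) and C1qc (1.003 ± 0.23), which macrophages make, both passed DESeq2. The 2 lower genes encode terminal pathway components. C7 was at 28.3, 42.2 and 126 CPM and 14.6, 22.5 and 11.4 CPM (-2.02 ± 0.58), with PBS 10 far above the other PBS libraries, and C6 was at or below 6.85 CPM throughout. C5ar1 differed by -0.996 and C7 by 0.89 under the deposited names.

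Chemokine genes were higher with IVIG in all 3 libraries for 11 of 23 tested members and lower for 1, beside 11.0% and 6.98% of all genes. DESeq2 called 7, all higher, beside 4.09% of all genes. In 1 of the 23 no PBS library reached the 0.325 CPM of the low-count filter, so it passed through IVIG alone and had to differ. That gene is counted in the 11 and in the 7. Ccl9 (chr11:83572919-83578636) and Ccl6 (chr11:83587882-83593087), ligands made by myeloid cells, were at 412, 221 and 249.6 CPM against 735, 1014 and 1223 CPM and at 607, 396 and 454 CPM against 845, 1446 and 1362 CPM. Ccl2, which attracts monocytes, was at 20.03, 7.35 and 5.14 CPM and 74.9, 24.7 and 70.2 CPM (2.38 ± 0.63). Cxcl10, an interferon-induced ligand for T cells, was at 4.26, 4.26 and 0.857 CPM and 44.9, 8.42 and 15.5 CPM (2.88 ± 0.81, adjusted p = 0.213, DESeq2 0.00167). IVIG 2 had the highest Ccl2 and Cxcl10 and IVIG 6 the lowest of the IVIG group. Of 19 cytokine and NF-kB target genes 10 had all IVIG libraries above (11.0% of all genes) and 5 were called higher by DESeq2 (4.09%). Nfkb2 (chr19:46304320-46312385), an NF-kB subunit, was at 42.7, 38.4 and 39.03 CPM and 64.3, 68.4 and 70.4 CPM (adjusted p = 0.0969), and the NF-kB inhibitors Nfkbia (0.69 ± 0.15) and Tnfaip3 (1.34 ± 0.31) also passed DESeq2. Tnf was at 4.05, 3.16 and 1.34 CPM and 9.84, 6.10 and 17.02 CPM (1.95 ± 0.53), and Il1b, with 7.70, 2.99 and 3.12 CPM and 13.2, 1.65 and 5.10 CPM, overlapped. Ccl9 differed by -1.32, Tnf by -1.32 and Tnfaip3, which kept its sign, by 1.12 under the deposited names.

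Of 18 leukotriene and prostaglandin genes 3 lay above in all IVIG libraries and 1 below, shares near the 11.0% and 6.98% of all genes. Alox5ap (chr5:149264767-149288153), which presents arachidonic acid to 5-lipoxygenase, was at 92.7, 89.6 and 81.8 CPM and 176, 191 and 273 CPM (1.28 ± 0.21, adjusted p = 0.0948). Ptger2, a prostaglandin E2 receptor, differed by 1.65 ± 0.42. Hpgd, which inactivates prostaglandins, was at 111, 115 and 87.5 CPM and 48.7, 48.5 and 71.4 CPM (-0.90 ± 0.21, DESeq2 adjusted p = 0.0183). Outside these groups, Adam8, a leukocyte metalloprotease, differed by 1.92 ± 0.40, and Atf3 (chr1:191170296-191218039), a stress-induced transcription factor, by 1.92 ± 0.31 (adjusted p = 0.0948). Atf3 belongs to a list of 21 genes induced early or during tissue handling, of which 6 lay above in all IVIG libraries (11.0% of all genes), 1 below (6.98%), and 1 passed DESeq2, a share near the background of 4.09% higher.

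The target of the pathogenic antibody and its neighbours in the basement membrane passed no test. Of 18 basement membrane and hemidesmosome genes 0 passed edgeR or DESeq2, 0 lay above and 3 lay below in all IVIG libraries, and the median was -0.45. Over all genes 11.0% lay above, 6.98% below and the median was -0.045. Of all genes edgeR called 0%, and DESeq2 called 4.09% higher and 0.763% lower, so 0 of 18 called is near that background. Lamb3 (chr1:193207699-193343878) was at 5.72, 16.7 and 13.2 CPM in PBS and 9.29, 5.68 and 4.93 CPM in IVIG (-0.84 ± 0.44, adjusted p = 0.522). Lama3 was at 10.1, 17.8 and 13.1 CPM and 15.4, 6.44 and 5.69 CPM (-0.58 ± 0.43). Both genes, which encode chains of laminin 332, overlapped between groups. Col17a1, the transmembrane collagen of hemidesmosomes, differed by -0.79 ± 0.57, Col7a1 of the anchoring fibrils by -0.57 ± 0.47, and the integrin chains Itga6 and Itgb4 by -0.53 ± 0.25 and -0.32 ± 0.51. The 3 genes below in all IVIG libraries were Itga6, Lama5 (-0.58 ± 0.21), a laminin chain, and Nid2 (-1.19 ± 0.39), which links laminins to collagen IV. Keratinocyte content varied in the same libraries: Krt5 was at 375, 1007 and 600.1 CPM and 798, 205 and 216 CPM, Krt14 differed by -0.47 ± 0.67 and Col1a1 by -0.54 ± 0.44. The wound keratins Krt6a and Krt16 were high in IVIG 2 alone, at 29.7 and 36.1 CPM. Lamb3 differed by 0.78 and Lama3 by 0.33 under the deposited names.

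Hair shaft genes were high in 2 of the 3 PBS libraries. Of the 27 hair shaft and inner root sheath genes 7 passed the low-count filter. Their levels in PBS 1 and 5 take part in passing it, so no count or median is read from them. The list summed to 641 and 655 CPM in PBS 1 and 5 and to 8.12 CPM in PBS 10, against 8.61, 5.34 and 4.87 CPM in IVIG 2, 6 and 13. Tchh, trichohyalin of the inner root sheath, was at 155, 207 and 2.27 CPM and 2.66, 2.17 and 1.79 CPM, so PBS 10 stood with the IVIG libraries. Krt28, an inner root sheath keratin, was at 20.3, 18.8 and 0.529 CPM and 0.449, 0.305 and 0.172 CPM, and Msx2, a matrix transcription factor, at 5.78, 3.40 and 0.932 CPM and 0.656, 0.244 and 0.172 CPM. In both genes PBS 10 lay closer to the IVIG libraries than to PBS 1 and 5. With PBS 10 left out edgeR called 13 genes, all lower, Tchh and Krt28 among them. In the list of hair stem cell and outer root sheath genes 6 of 15 lay below in all IVIG libraries (6.98% of all genes) and DESeq2 called 5 lower (0.763%), with a median of -1.02 beside -0.045 over all genes. The list's summed level overlapped between groups, at 774, 821 and 895 CPM in PBS and 749, 804 and 786 CPM in IVIG. Lgr5 (chr10:115450311-115587780), a receptor of follicle stem cells, was at 9.07, 8.31 and 4.76 CPM and 2.94, 1.16 and 1.83 CPM (-1.90 ± 0.44), and Lhx2, a stem cell transcription factor, at 18.87, 9.21 and 5.97 CPM and 3.42, 2.78 and 1.21 CPM. Corin, of the dermal papilla, was at 5.57, 2.03 and 0.378 CPM and 0.0691, 0.122 and 0.172 CPM; no IVIG library reached the filter's 0.325 CPM, so it passed through PBS alone and had to differ. Corin is counted in the 6 of 15 below and in the 5 DESeq2 calls, and its value enters the median. Of 11 melanocyte genes 9 were tested, and 1 lay below in all IVIG libraries (6.98% of all genes) while DESeq2 called 5 lower (0.763%): Mlana was at 3.74, 5.53 and 2.92 CPM and 1.93, 0.946 and 1.55 CPM and Pmel at 32.02, 23.4 and 3.98 CPM and 4.87, 2.59 and 3.65 CPM. With the hair shaft sum as a covariate the outer root sheath median was -0.14, the interferon median 2.64 and edgeR called 0 genes. Tchh differed by 5.94 and Lgr5 by 1.89 under the deposited names.

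The skeletal muscle list, which marks muscle taken with the skin, summed to 600, 241 and 30000 CPM in PBS 1, 5 and 10. In IVIG 2, 6 and 13 it summed to 82.6, 6150 and 3720 CPM. Of its 22 genes 0 passed edgeR or DESeq2, and some had no DESeq2 adjusted p. Over all genes edgeR called 0%, and DESeq2 called 4.09% higher and 0.763% lower, so 0 of 22 is near that background. T cell and B cell list sums overlapped between groups, at 112 to 312 against 205 to 359 CPM and at 631 to 1130 against 427 to 784 CPM.

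Of the genes with an edgeR adjusted p under 0.1 only 3 were lower with IVIG, named here after their values were seen. S100a7a, an epidermal antimicrobial protein of the psoriasin group, was at 1.95, 4.50 and 1.64 CPM in PBS and 0.242, 0.244 and 0.207 CPM in IVIG (-3.52 ± 0.54, adjusted p = 0.0831). No IVIG library reached the 0.325 CPM of the low-count filter, so S100a7a passed it through PBS alone and had to differ; its values are a description. Celsr2, a planar polarity cadherin, was at 51.1, 57.1 and 59.8 CPM and 29.9, 31.2 and 25.4 CPM (-0.96 ± 0.15), and the long noncoding RNA Miat at 19.8, 33.7 and 19.98 CPM and 7.15, 9.13 and 8.27 CPM (-1.58 ± 0.26). Celsr2 and Miat did not overlap between groups. Celsr2 differed by 0.81 and Miat by 1.54 under the deposited names.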

How the data were processed

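RNA-seq libraries of mouse skin, blood, neutrophils and monocytes were deposited as 1 table of estimated counts per gene (46264 genes, 46 columns), which the authors made with kallisto 0.46.1 on GRCm38, per the submitters' processing notes; its file name gives the values as transcript-per-million values scaled by length to library size. Per the labels' protocol, RNA was enriched with oligo(dT) beads. The authors' estimated counts were rounded to whole numbers here. Skin columns were taken by the re-sorted names, an inferred order, and by the deposited names for comparison; groups and numbers come from the titles. The main test was edgeR 4.0.16 (quasi-likelihood, TMM scaling, filterByExpr with a minimum count of 10, Benjamini-Hochberg adjusted p under 0.05), in R 4.3.3. Alternatives were DESeq2 1.42.0, limma 3.58.1 voom with quality weights, other scalings and filters, covariates for muscle and hair, and each library left out. Scripts were tested on simulated data. Gene positions are GENCODE vM21 on GRCm38 and promoter windows are RefSeq's. No 2 of the 15 pairs of skin libraries held identical values. The libraries and the 40 gene lists (646 of 649 genes in the table) were chosen with earlier results of these data known. Genes were named by a rule: the 10 smallest p, since fewer than 10 genes passed, up to 3 of smallest p per list, and 23 fixed genes. Irf7, Ifit1, Isg15, Iigp1, Cd209b, C1qc, Ly6c2, Csf1r, Lyz2, Cd163, Mrc1, C7, C6, Ccl2, Cxcl10, S100a7a, Celsr2, Miat, Oas1a, Oas3 and Stat2 were named after their values were seen, or as defining markers. The joint fit and the motif search were also chosen after seeing the data. Some genes of the lists are counted but not reported here by name.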

Additional observations from a re-analysis of the deposited data

Results flagged for a closer look

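The following genes differed between tissues in their IVIG difference under the re-sorted names, by a test of that difference in the joint edgeR fit at an adjusted p under 0.05. They are only those of the called genes that are named in this text. Over all 18857 genes the fit called 54 higher in skin than in neutrophils. Against monocytes it called 126 higher and 8 lower. The log2 difference in skin minus that in neutrophils was Ccl9 1.78, Cd68 1.80, Dhx58 2.11, Irf5 1.45, Irf7 2.90, Oas1a 2.15, Oas3 3.30, Oasl2 2.45, Plcg2 1.10 and Ptpn6 1.22. The log2 difference in skin minus that in monocytes was Atf3 3.10, Camp -3.01, Ccl2 3.21, Ccl9 1.65, Cfb 3.40, Cfp 1.70, Dhx58 2.86, Fcer1g 1.24, Fcgr1 3.09, Ifit1 3.55, Irf5 2.02, Irf7 3.54, Irf9 1.45, Isg15 4.25, Oas1a 3.03, Oas3 3.23, Oasl2 2.67, Ptpn6 1.10 and Stat2 1.80. All of these values but that of Camp are positive. Most of these genes were named for their values in the skin comparison, so the shared sign is not a separate result. Camp, an abundant granule transcript of myeloid precursors, was at 4.67 CPM or below in every skin library. The neutrophil and monocyte groups combine 3 series, the monocyte library numbered 13 of S5 had only 8959 genes with at least 5 counts, and the part of either in these values was not tested.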

How the results depend on the processing

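Naming decided the direction. Under the deposited names, which also bring 2 blood libraries into the comparison, 74 of the 82 genes named in the text reversed, with log2 fold changes of Dhx58 -1.75, Helz2 -0.55, Apol9b -2.65, Znfx1 -1.17, Plac8 -1.52, Irf5 -1.46, Lgals9 -0.98, Rtp4 -1.85, Oasl2 -1.26, Irf9 -0.67, Irf7 -1.89, Ifit1 -1.81, Iigp1 -0.77, Ptpn6 -0.16, Fcgr1 -2.04, Plcg2 -0.43, Fcer1g -0.92, Fcgr4 -1.66, Fcgr2b -0.69, Fcgr3 -0.27, Cd209b 1.10, Cd68 -1.01, C1qb -0.93, C1qc -0.90, Ly6c2 -0.88, Csf1r -0.43, Lyz2 -0.65, Cd163 0.71, Mrc1 -0.12, Cfb -1.15, Cfp -1.40, C3ar1 -1.55, C5ar1 -0.996, C7 0.89, C6 0.97, Ccl9 -1.32, Ccl6 -1.12, Ccl2 -1.65, Cxcl10 -2.33, Nfkb2 -0.79, Nfkbia -0.54, Tnf -1.32, Alox5ap -1.75, Hpgd 1.12, Ptger2 -0.87, S100a8 -0.49, S100a9 -0.53, Csf3r -0.26, Lama3 0.33, Lamb3 0.78, Lama5 0.81, Nid2 1.12, Col17a1 0.47, Col7a1 0.72, Krt5 0.46, Krt14 0.28, Krt6a -0.54, Krt16 -2.01, Col1a1 1.16, Krt28 5.25, Tchh 5.94, Msx2 3.08, Lgr5 1.89, Lhx2 2.06, Mlana 1.52, Pmel 1.90, Adam8 -1.01, Atf3 -1.08, Celsr2 0.81, Miat 1.54, Oas1a -2.05, Oas3 -1.66, Stat2 -1.23, Camp 1.18. Of the other named genes 6 kept their sign, and Corin and S100a7a were not among the genes tested under the deposited names. The differences in library measures that reversed were 221 genes detected, 0.115% mitochondrially coded counts, and in summed CPM 325 for basal keratinocytes, 428 for hair shaft, 12200 for fibroblasts, 755 for adipocytes, -3300 for macrophages, -32.0 for neutrophils, 183 for B cells and -1640 for the interferon list. No measurement in the skin libraries tells which naming gives the right treatment.

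The number of genes past an adjusted p of 0.05 under the re-sorted names was 0 with TMM, DESeq2's size factors, library totals, a minimum count of 50, limma voom, the hair shaft covariate and the haemoglobin, muscle and hair genes left out. It was 841 with DESeq2, 34 with no low-count filter, 104 with the muscle covariate, 253 in the joint fit, and 109 at an adjusted p under 0.1; with 1 library left out it was 0 to 13, the 13 without PBS 10. Under the deposited names it was 0, except 3 with DESeq2 and 4 with only the 4 columns that carry skin markers, an alternative chosen after seeing the data as the joint fit was. Apart from the naming and the joint fit, 1200 of 1221 values of the named genes kept their direction. The 21 that did not were those of Fcgrt (0.082 with voom), Mrc1 (-0.082 with library totals, -0.13 with the hair covariate), Il1b (-0.13 with voom), Col7a1 (0.002 with the hair covariate), Krt6a (-1.11 with voom, -0.56 with the muscle covariate), Krt16 (-1.23 with voom), Tchh (0.35 with the hair covariate), Pmel (0.084 with the hair covariate), and those of leave-one-out fits, with ranges of -0.24 to 0.25 for Fcgrt, -0.47 to 1.12 for Il1b, -0.69 to 0.009 for Itgb4, -1.48 to 0.078 for Krt14, -1.91 to 2.91 for Krt16, -2.01 to 1.03 for Krt6a, -0.12 to 0.16 for Mrc1, -0.14 to 1.72 for S100a8, -0.045 to 1.30 for S100a9. The cause of these changes was not tested. No paired analysis was possible because the skin titles of the 2 groups share no number. Low counts limit genes such as C6, Corin, S100a7a and S100a8, at a few CPM or below.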
